A study of Homo sapiens with 6 samples.

Results

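The clustered replication-dependent histone genes were examined in RKO cells, an established line of human colorectal carcinoma. They were taken as the protein-coding genes whose names in the GENCODE version 29 annotation begin with HIST1H, HIST2H, HIST3H or HIST4H, which gave 71 of the 58735 genes in the table. RNA of 6 libraries had been sequenced, 3 from control cells (Vector) and 3 from cells with stable overexpression of the long noncoding RNA LOC101927668 (LOC_OE). The LOC_OE cells were made by lentiviral infection with the full-length transcript in a plenti6 plasmid and selected with puromycin. In the paper RKO controls carried the control vector, and their infection and selection are not described apart. No other treatment is named for either group, and no clone of either line is named. Nothing in the labels states that the 3 libraries of a group came from separate cultures, so p-values measure the spread between these libraries, which may be technical.

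Chromatin is built from nucleosomes, in which DNA is wrapped around a core of histones H2A, H2B, H3 and H4, while the linker histone H1 binds where DNA enters and leaves the core. Most of these proteins are made in S phase from the clustered genes, in step with DNA replication. Their mRNAs are the known exception to polyadenylation, since they usually end in a short stem-loop bound by SLBP instead of a poly(A) tail. Some of the genes also give longer polyadenylated forms, mainly in differentiated or arrested cells. HIST1 is the major cluster and lies on chromosome 6, where the members spanned 25726132 to 27893843 on GRCh38. HIST2 and HIST3 lie on chromosome 1 and HIST4H4 lies alone on chromosome 12.

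The stem-loop was looked for first, because it separates these mRNAs from nearly all others and is the part of the transcript that a library may or may not capture. The 150 bases after the stop codon were searched on the transcript's strand for a stem of 6 base pairs that opens with GG and ends with CC, with at most 1 mismatch, around a 4-base loop of the histone type. Of the 32 members with at least 60 annotated bases after the stop codon, 31 held one, and HIST1H2BJ did not. Among other protein-coding genes, 17 of 18676 (0.091%) held one, among them H2AFX, a replacement histone gene. The sequences below are read 5′ to 3′ from the GENCODE version 29 transcripts on GRCh38, with the stem-loop in capitals. The first 7 belong to genes that were lower in LOC_OE and the last 3 to genes that did not pass the test.
HIST1H3H (chr6:27810511-27810536, plus strand): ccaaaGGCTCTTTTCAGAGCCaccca
HIST1H2BL (chr6:27807479-27807504, minus strand): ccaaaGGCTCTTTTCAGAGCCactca
HIST1H2BN (chr6:27839085-27839110, plus strand): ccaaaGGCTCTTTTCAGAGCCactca
HIST1H2BD (chr6:26158582-26158607, plus strand): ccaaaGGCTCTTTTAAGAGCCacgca
HIST1H2BF (chr6:26199963-26199988, plus strand): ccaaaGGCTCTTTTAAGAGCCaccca
HIST1H2AG (chr6:27133510-27133535, plus strand): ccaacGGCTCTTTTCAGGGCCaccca
HIST2H2BE (chr1:149886183-149886208, minus strand): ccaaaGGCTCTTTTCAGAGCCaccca
HIST1H4H (chr6:26285126-26285151, minus strand): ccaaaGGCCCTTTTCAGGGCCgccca
HIST3H2A (chr1:228457364-228457389, minus strand): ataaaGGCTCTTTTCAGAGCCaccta
HIST4H4 (chr12:14770719-14770744, minus strand): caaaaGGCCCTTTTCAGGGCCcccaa
There were 6 forms of the 16 bases. The form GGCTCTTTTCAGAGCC was shared by 17 members of the H2A, H2B and H3 types, of which 12 were tested and 4 were called lower. The form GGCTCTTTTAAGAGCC was found in 5 H2B and H3 members, of which 4 were tested and 2 were called lower. Of all tested members 25.7% were called lower, and of all tested genes 5.58%. Differences between the forms were not tested. The H4 members carried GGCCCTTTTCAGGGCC or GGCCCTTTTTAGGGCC, in 4 and 3 genes.

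The promoters were matched to RefSeq (GRCh38.p14) for 61 of the 71 members, as 250 bases before to 50 bases after the start. The octamer ATTTGCAT, the site of POU2F1, was found on either strand in 14 of 18 H2B promoters (77.8%) and 11 of 14 H2A promoters (78.6%), against 1.8% of 27305 promoters in all. It was found in 1 of 10 H3 promoters and in none of the 6 H1 and 13 H4 promoters. These counts are not independent, since windows of neighbouring genes overlap. In 8 head-to-head pairs of H2A and H2B genes the same octamer was counted for both. The H3 match, HIST1H3D, had the same window as HIST1H2AD. The CCAAT box (letters CCAAT, either strand) was in every H1, H2A, H2B and H3 promoter matched, in 23.1% of H4 promoters and in 35.7% of all promoters. TATAAA on either strand was in 50% to 80% of the promoters of each type and in 12% of all. The windows below show, for 4 H2B genes with different outcomes, the octamer and, where present, TATAAA on the gene's strand in capitals.
HIST1H2BK (chr6:27146855-27146914, minus strand): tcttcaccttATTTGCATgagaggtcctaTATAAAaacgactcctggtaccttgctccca
HIST2H2BE (chr1:149886679-149886738, minus strand): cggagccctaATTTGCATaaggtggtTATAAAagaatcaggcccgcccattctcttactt
HIST1H2BG (chr6:26216687-26216746, minus strand): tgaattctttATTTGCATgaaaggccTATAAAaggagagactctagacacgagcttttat
HIST1H2BJ (chr6:27132793-27132852, minus strand): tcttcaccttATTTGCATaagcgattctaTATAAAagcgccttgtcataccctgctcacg
The first 3 were lower in every LOC_OE library than in every Vector library and the last was not. Over all tested members with a matched promoter, this held for 6 of 14 with the octamer and 9 of 19 without it. It held for 20.9% of all tested genes. No octamer with these exact letters lay in the promoter windows of HIST1H2BL, HIST1H2BN, HIST1H2BD and HIST1H2AI. A match of letters is a description and was not tested as a binding site.

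The overexpressed RNA was checked in every library. LOC101927668 was found through its RefSeq transcript as the gene AC005062.1, on chromosome 7 from 19918981 to 20140453. The Vector libraries held 1, 1 and 0 reads of it and the LOC_OE libraries 231, 270 and 276. Reads on genes were between 15008842 and 18410231 per library. Values were FPKM, fragments per kilobase of exon scaled to the size of the library, and the number of reads behind each could be recovered. LOC_OE replicate 1 stood apart from its group, since it correlated with replicates 2 and 3 at Pearson r of 0.967 and 0.962 across the tested genes, which are not independent replicates, while replicates 2 and 3 correlated at 0.982. The counts of genes and the values of the main genes are therefore also given without it. EPCAM, KRT8, KRT18 and CDX2 of the 9 epithelial markers were expressed and tested, and none passed, although KRT8 and KRT18 passed upwards without LOC_OE replicate 1. The summed FPKM of the 9 was between 39.4 and 41.5 in Vector and 89.6, 48.9 and 48.4 in LOC_OE. Of the remaining markers, CDH1 was at 0, and KRT19, KRT20, VIL1 and LGALS4 reached at most 0.262 FPKM. The summed FPKM of 6 fibroblast markers was between 0.157 and 0.203 in Vector and between 0.0318 and 0.125 in LOC_OE, with COL1A2, COL3A1 and DCN at 0. That of 5 leukocyte markers was between 0.935 and 1.38 in Vector and between 0.268 and 0.88 in LOC_OE, with CD3E at 0. The part of these markers in the histone values was not tested.

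More histone genes were lower than higher in LOC_OE, and the summed level was lower in LOC_OE replicates 2 and 3 but not in replicate 1. Summed over all 71 members, the level was 266, 251.1 and 236.9 FPKM in Vector and 256.9, 147.7 and 134.2 FPKM in LOC_OE. LOC_OE replicate 1 lay within the Vector range and replicates 2 and 3 lay far below it, at a mean 1.78 times lower than the Vector mean. In bulk RNA, fewer cells of a type and less RNA per cell cannot be told apart. The 37 S-phase genes tested, described further on, were all above 0 in LOC_OE, with a median log2 fold change of 0.60. Of the 71 members, 11 had no read in any library and 24 had at most 3 reads in each. The filter, 0.5 FPKM reached in 3 or more libraries, was passed by 35 members, 3 of them through one group only. In limma's test over 16061 genes, 9 of these 35 were called lower, where a call needs a fold change of 1.5 or more on the log2(FPKM + 1) scale and an adjusted p below 0.05. That was 25.7% of the tested members, where 5.58% of all tested genes were called lower. The 3 that passed the filter through one group only were HIST1H2BN, HIST1H3J and HIST2H2BF, all through Vector, and the first 2 are among the calls. Without such genes 7 of 32 members (21.9%) and 4.61% of all genes were called lower. With a filter blind to the groups, a mean of at least 1 FPKM over all libraries, 9 of 25 members were called lower, HIST1H2BN among them and HIST1H3J not, against 715 of 13216 genes. None was called higher, where 4.63% of all genes were. At an unadjusted p under 0.05 again 0 members were higher past the fold limit, as with voom on the recovered reads, and HIST1H1E passed that p with a smaller fold.

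Without the fold limit the same number, 9, passed the adjusted p downwards and 0 upwards, against 9.74% and 10.7% of all genes. The log2 fold change was below 0 in 27 and above 0 in 8 of the 35, with a median of -0.48, where the median of all tested genes was 0.02. In 16 members (45.7%) every LOC_OE library lay below every Vector library, and in 4 (11.4%) above, against 20.9% and 24.4% of all tested genes. In a fit without LOC_OE replicate 1, 17 members (48.6%) were called lower and 0 higher, against 5.84% and 4.56% of all genes, and the median was -0.64. There, 17 members passed the adjusted p downwards and 1, HIST2H2AC, upwards, against 16.1% and 19.4% of all genes. The summed FPKM of all genes was higher in LOC_OE, between 305700 and 360400 against 264100 to 280600 in Vector. Rescaled to the same sum, the median of all genes moved from 0.02 to -0.18, lower calls went from 54.7% to 87.4% of all calls, and 17 members were called lower. Relative to the median of all genes, the members' median was -0.50 as deposited and -0.43 after rescaling, with 27 of 35 below it both times.

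**Figure D1:**
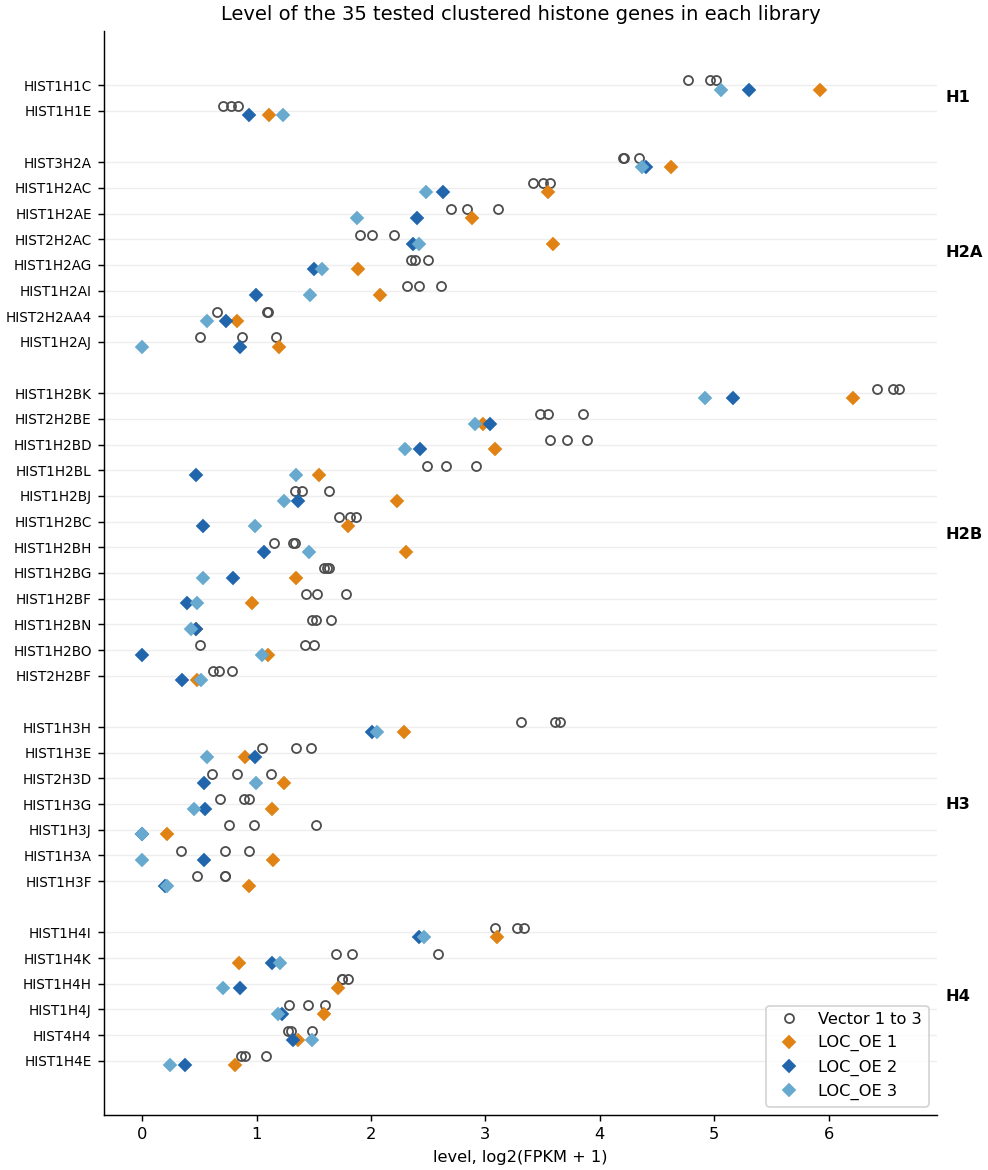
Level of each tested histone gene on the log2(FPKM + 1) scale, with open circles for the 3 Vector libraries and diamonds for the LOC_OE libraries, coloured by replicate and grouped by histone type. In 29 of the 35 genes LOC_OE replicate 1 (orange) is the highest of the LOC_OE libraries, while for genes such as HIST1H3H and HIST1H2BN all 3 LOC_OE libraries lie far below Vector.

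**Figure D2:**
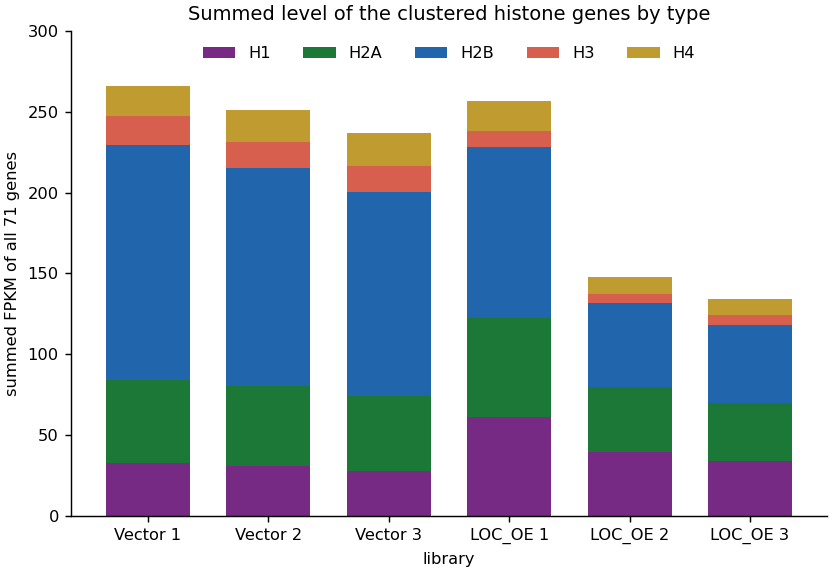
Summed FPKM of all 71 members in each library, stacked by histone type from 0. H2B is the largest part in every library and goes from 145.4, 134.8 and 126.3 FPKM in Vector to 105.9, 52.4 and 48.4 FPKM in LOC_OE, while H1 is higher in each LOC_OE library than in any Vector library.

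H2B, the partner of H2A in the outer dimers of the nucleosome, had more genes called lower than any other type. Of 18 members 12 were tested, 5 were called lower, 2 had a log2 fold change above 0, and the median was -0.71. HIST1H2BN, among the calls, and HIST2H2BF were tested through Vector only. With array weights or equal sums of FPKM H4 had the larger share, 4 of 6 against 7 of 12. With a mean of at least 1 FPKM H3 did, 1 of 2 against 5 of 11. H3 also did without Vector replicate 1, 2 of 7 against 1 of 12, and without Vector replicate 2 or 3, 1 of 7 against 1 of 12. Every LOC_OE library was below every Vector library in 8 of the 12, where this held for 20.9% of all tested genes. The calls of H2B, and of the types below, stand beside 5.58% of all tested genes called lower. HIST1H2BK had the highest FPKM of all members. It made up 36.5%, 37.2% and 35.7% of the members' summed FPKM in Vector and 28.5%, 23.6% and 21.8% in LOC_OE. These shares rest on its short annotated length, which ends at the stop codon. By reads its part was smaller, since the members had 4330 in Vector replicate 1, and 3637 without HIST1H2BK. The gene measured 96.9, 93.4 and 84.5 FPKM in Vector and 73.1, 34.9 and 29.3 FPKM in LOC_OE. All 3 LOC_OE libraries were below Vector, and replicate 1 was 2.28 times the mean of the other two. The log2 fold change was -1.10 ± 0.32 (SE) with an adjusted p of 0.0568, which missed the threshold. It was -1.49 ± 0.09 with an adjusted p of 0.000846 without LOC_OE replicate 1, and -1.11 with 0.0255 by voom. The other 70 members together had 169, 157.7 and 152.4 FPKM in Vector and 183.7, 112.9 and 104.9 FPKM in LOC_OE, so that the drop in replicates 2 and 3 did not rest on HIST1H2BK alone.

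HIST1H2BL had the largest decrease on the log2(FPKM + 1) scale, while by the ratio of mean FPKM HIST1H2BN fell more. HIST1H2BL had 6.55, 5.30 and 4.63 FPKM in Vector and 1.92, 0.383 and 1.53 FPKM in LOC_OE. The groups did not overlap, and the log2 fold change was -1.57 ± 0.29 (adjusted p = 0.0162), and -1.78 (0.00577) without LOC_OE replicate 1. The reads behind it were few in LOC_OE, at 15, 3 and 11. HIST1H2BN was at 2.14, 1.79 and 1.88 FPKM in Vector and at 0.388, 0.387 and 0.348 FPKM in LOC_OE. Here LOC_OE replicate 1 did not stand apart, and the level was 5.17 times lower in LOC_OE, against 4.29 times for HIST1H2BL. The log2 fold change was -1.09 ± 0.10 (adjusted p = 0.00418), and -1.10 (0.00185) without LOC_OE replicate 1. The LOC_OE libraries were all under the filter, which the gene passed through Vector. HIST1H2BN has the longest annotated exons of the members, 5477 bases, and overlaps HIST1H2AK on the opposite strand, whose reads cannot be told apart from its own. The level of HIST1H2BD was 13.8, 12.1 and 10.9 FPKM in Vector and 7.46, 4.37 and 3.91 FPKM in LOC_OE. It fell by 1.12 ± 0.21 on the log2 scale (adjusted p = 0.0184), and by 1.36 (0.00112) without LOC_OE replicate 1.

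HIST1H2BF and HIST2H2BE also fell. HIST1H2BF had 1.69, 2.43 and 1.89 FPKM in Vector and 0.94, 0.313 and 0.398 FPKM in LOC_OE, a log2 fold change of -0.97 (adjusted p = 0.0181), or -1.14 (0.00315) without LOC_OE replicate 1. HIST2H2BE, one of the H2B genes with a long polyadenylated form, had 13.5, 10.1 and 10.7 FPKM in Vector and 6.89, 7.22 and 6.51 FPKM in LOC_OE. Its 3 LOC_OE libraries were nearly equal, and its log2 fold change of -0.65 ± 0.12 (adjusted p = 0.016) was -0.65 without LOC_OE replicate 1 as well. HIST1H2BG and HIST1H2BC missed the threshold with all libraries, at adjusted p = 0.0542 and 0.151, and passed without LOC_OE replicate 1, at 0.00315 and 0.00531, and with array weights. HIST1H2BG also passed by voom and with equal sums of FPKM. HIST1H2BC was at 2.30, 2.52 and 2.64 FPKM in Vector and at 2.47, 0.449 and 0.979 FPKM in LOC_OE, so that replicate 1 lay inside the Vector range. HIST1H2BH was at 1.53, 1.49 and 1.23 FPKM in Vector and at 3.94, 1.09 and 1.75 FPKM in LOC_OE. LOC_OE replicates 1 and 3 were above every Vector library and replicate 2 below, and the log2 fold change of 0.34 did not pass (adjusted p = 0.459), nor did the -0.01 without replicate 1.

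H3 and H4 form the inner tetramer of the nucleosome. Of 15 H3 members 7 were tested and 2 were called lower, with a median of -0.19. The H3 median was unstable, at -0.43 without LOC_OE replicate 1, -0.07 without LOC_OE replicate 3, -0.09 without LOC_OE replicate 2, and -0.68 with a pseudocount of 0.1 or by voom. HIST1H3H had the highest level of the H3 members and the lowest p of all histone genes. It measured 11.6, 11.2 and 8.95 FPKM in Vector and 3.89, 3.02 and 3.14 FPKM in LOC_OE. All 3 LOC_OE libraries were far below Vector, 3.16 times lower on average, and the log2 fold change was -1.41 ± 0.13 (adjusted p = 0.00383), or -1.50 (0.00106) without LOC_OE replicate 1. The summed H3 level went from 17.9, 16.2 and 16.6 FPKM to 10.2, 5.53 and 5.97 FPKM. HIST1H3J rested on few reads, 10, 14 and 27 in Vector and 2, 0 and 0 in LOC_OE. It passed the filter through Vector only. Its log2 fold change was -1.01 (adjusted p = 0.0244), or -1.09 (0.0207) without LOC_OE replicate 1, and the ratio of reads per library size, Vector over LOC_OE, was 21.3 with a 95% interval of 5.6 to 181 that covers counting error only. The exons of HIST1H3J overlap HIST1H2AM on the same strand. HIST1H3E was at 1.53, 1.06 and 1.79 FPKM in Vector and 0.863, 0.978 and 0.483 FPKM in LOC_OE without passing (log2 fold change -0.47, adjusted p = 0.0956). HIST1H3G and HIST2H3D, at under 1.4 FPKM in every library, had log2 fold changes of -0.12 and 0.07 (adjusted p = 0.705 and 0.84), and both signs turned under another scaling, HIST1H3G with quantile normalization and HIST2H3D with equal sums of FPKM.

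Of 15 H4 members 6 were tested, with a median of -0.52, and HIST1H4K was the 1 called lower. It had 2.56, 2.24 and 5.00 FPKM in Vector and 0.801, 1.20 and 1.31 FPKM in LOC_OE (log2 fold change -0.97 ± 0.25, adjusted p = 0.0384, and 0.0531 without LOC_OE replicate 1). All of its 150-base windows also occur elsewhere, in HIST1H4J, which was at 1.43, 2.02 and 1.73 FPKM against 2.01, 1.34 and 1.28 FPKM (log2 fold change -0.11, adjusted p = 0.642), so how reads were divided between these copies is uncertain. HIST1H4I had the highest H4 level, with 9.10, 8.70 and 7.48 FPKM in Vector and 7.58, 4.34 and 4.52 FPKM in LOC_OE. HIST1H4H had 2.37, 2.37 and 2.49 FPKM in Vector and 2.28, 0.807 and 0.629 FPKM in LOC_OE. For both, LOC_OE replicate 1 was near Vector while replicates 2 and 3 were well below it. Their adjusted p was 0.0855 and 0.114 with all libraries, and 0.0025 and 0.00176 without LOC_OE replicate 1. HIST4H4 did not pass, at 1.47, 1.80 and 1.42 FPKM in Vector and 1.57, 1.5 and 1.79 FPKM in LOC_OE, with a log2 fold change of 0.04 ± 0.11 (adjusted p = 0.833) that was -0.12 with equal sums of FPKM.

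**Figure D3:**
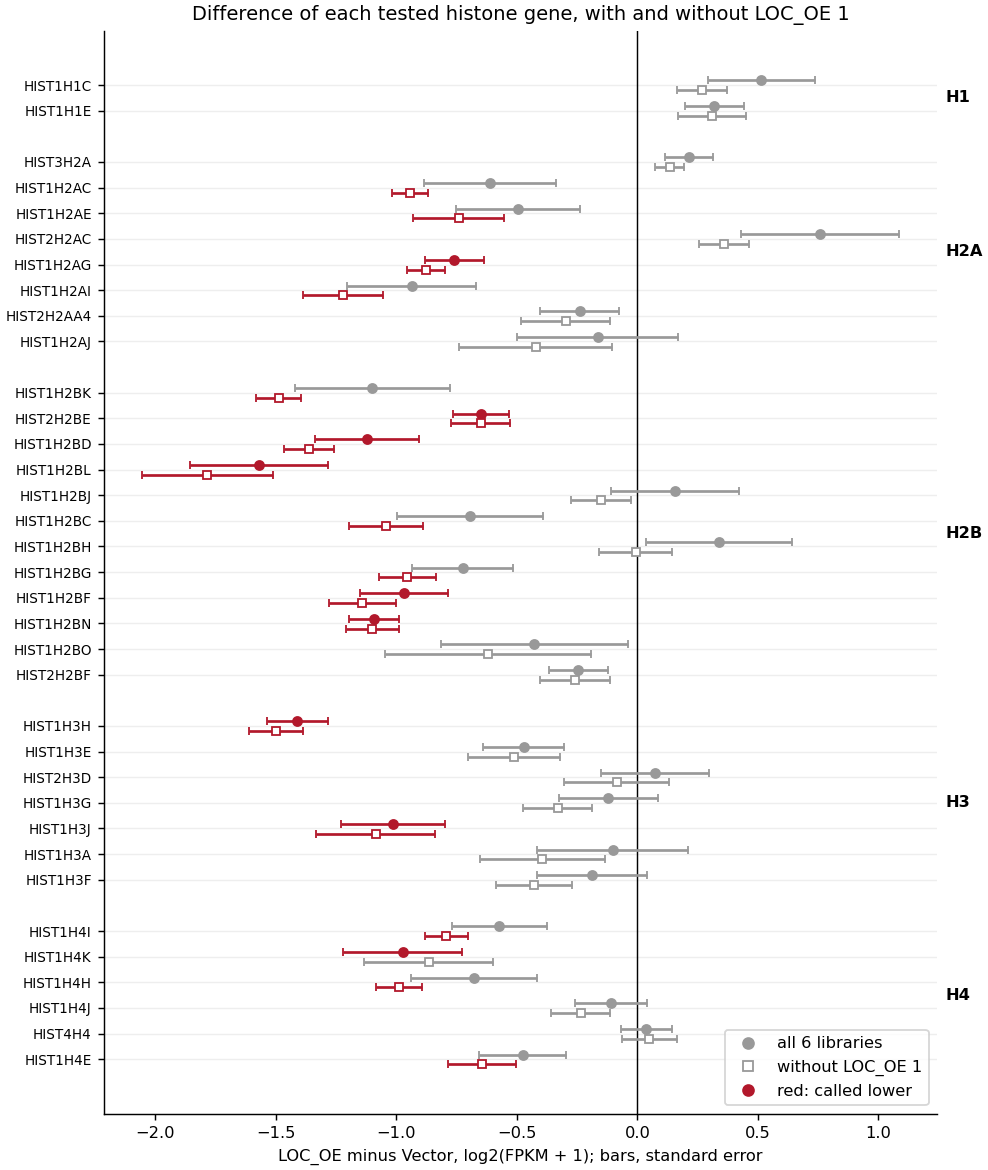
Difference LOC_OE minus Vector of each tested member on the log2(FPKM + 1) scale, with bars for the standard error, for all 6 libraries (filled circles) and without LOC_OE replicate 1 (open squares), in red where called lower. There are 9 red circles and 17 red squares, and the H1 genes, HIST3H2A, HIST2H2AC and HIST4H4 are above 0 in both fits, although HIST3H2A and HIST4H4 are below 0 with equal sums of FPKM.

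H2A was divided. Of 17 members 8 were tested, 1 was called lower, 2 were above 0, and the median was -0.37. HIST1H2AG fell, from 4.64, 4.21 and 4.11 FPKM in Vector to 2.69, 1.83 and 1.97 FPKM in LOC_OE (log2 fold change -0.76 ± 0.12, adjusted p = 0.0123, and 0.00149 without LOC_OE replicate 1). HIST1H2AC measured 10.8, 10.4 and 9.70 FPKM in Vector and 10.7, 5.20 and 4.57 FPKM in LOC_OE. Replicate 1 lay inside the Vector range and the other two far below it, and the log2 fold change was -0.61 (adjusted p = 0.161), or -0.94 (0.00119) without replicate 1. HIST1H2AE was similar, with 7.64, 6.14 and 5.49 FPKM against 6.38, 4.29 and 2.67 FPKM (adjusted p = 0.216, and 0.0298 without replicate 1). HIST1H2AI missed the threshold at a log2 fold change of -0.94 (adjusted p = 0.0529) and passed without replicate 1 (0.00417).

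HIST3H2A, from the small cluster on the long arm of chromosome 1, had the highest H2A level and was not lower. It was at 19.2, 17.4 and 17.5 FPKM in Vector and 23.6, 20.1 and 19.6 FPKM in LOC_OE, where every LOC_OE library was above every Vector library. The log2 fold change was 0.21 ± 0.10 (adjusted p = 0.171), and -0.04 after rescaling to the same sum of FPKM, where its difference from the median of all genes was still above 0. HIST3H2A passed the adjusted p upwards, under the fold limit, in 1 of 10 alternative settings that kept all libraries, at 0.0295. HIST2H2AC was at 2.73, 3.59 and 3.03 FPKM in Vector and 11.1, 4.16 and 4.36 FPKM in LOC_OE. The groups did not overlap but LOC_OE replicate 1 was 2.59 times the mean of the other two. Its log2 fold change of 0.76 ± 0.33 (adjusted p = 0.15) became 0.36 ± 0.10 without that library, with an adjusted p of 0.0435.

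Of 6 members of the linker histone H1 only HIST1H1C and HIST1H1E were tested, and in both every LOC_OE library was above every Vector library. HIST1H1C had the second highest level of all members and was at 31.3, 30.1 and 26.3 FPKM in Vector and 59.6, 38.6 and 32.3 FPKM in LOC_OE. Its log2 fold change of 0.51 ± 0.22 did not pass (adjusted p = 0.146), nor did the 0.27 ± 0.10 without LOC_OE replicate 1 (0.0959). It passed the adjusted p upwards, under the fold limit, in 1 of 10 alternative settings that kept all libraries, at 0.0136. Its share of the members' summed FPKM went from between 11.1% and 12% in Vector to between 23.2% and 26.1% in LOC_OE, of which part follows from the lower levels of the others. HIST1H1E was at 0.636, 0.714 and 0.784 FPKM in Vector and 1.16, 0.91 and 1.35 FPKM in LOC_OE (log2 fold change 0.32, adjusted p = 0.112), from 9 to 15 reads per library. For HIST1H1D the reads were 4, 0 and 3 among Vector libraries and 0, 2 and 0 among LOC_OE libraries, HIST1H1T had 2 reads in one Vector library, and HIST1H1A and HIST1H1B had none.

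**Figure D4:**
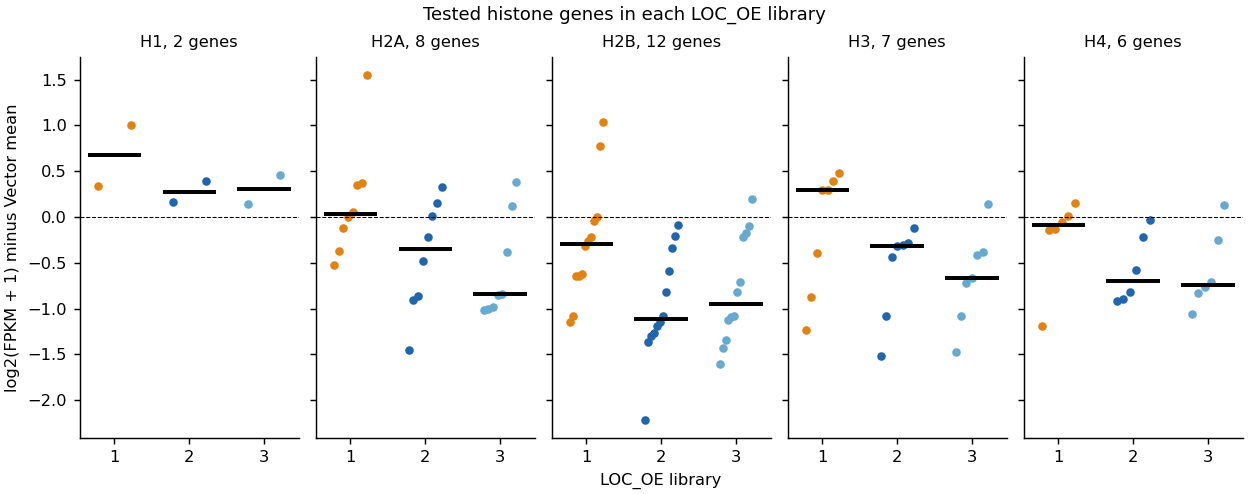
Tested members of each histone type in each LOC_OE library, as log2(FPKM + 1) minus the Vector mean, with a black bar at the median and a dashed line at 0. The medians of H2B are -0.29, -1.11 and -0.95 in LOC_OE replicates 1, 2 and 3, and those of H3 are 0.29, -0.31 and -0.66.

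LOC_OE replicate 1 differed from replicates 2 and 3 in these genes. The median over the 35 tested members, relative to the Vector mean, was -0.05 in replicate 1, -0.58 in replicate 2 and -0.72 in replicate 3, while the medians over all tested genes were 0.03, 0.01 and 0.01. The Vector libraries had member medians of 0.07, 0.00 and -0.05. Replicate 1 was the highest LOC_OE library in 29 of 35 members (82.9%), where it was so in 45% of all tested genes. It was not the highest for HIST1H4K, where it was the lowest, and it lay between the other two for HIST2H2BE, HIST2H2BF, HIST1H3E, HIST1H1E and HIST4H4. In 16 members, the 9 called lower among them, replicate 1 was itself below every Vector library.

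How far a call depended on 1 library was examined by leaving each out. HIST1H3H and HIST1H2BN passed in all 6 such fits, although HIST1H2BN had entered the test through its Vector levels alone. Without LOC_OE replicate 1, 8 of the 9 calls were kept, with HIST1H4K lost, and 9 were gained. Without LOC_OE replicate 2, HIST1H2BD, HIST1H2BF, HIST1H3J and HIST1H4K were lost, and without replicate 3 HIST1H3J and HIST1H4K. Leaving out a Vector library lost more, with 3 calls kept without replicate 1 and 2 without replicate 2 or 3. HIST1H2BL, HIST1H2BD, HIST1H2BF, HIST1H2AG, HIST2H2BE and HIST1H4K were lost in each of these 3 fits, and HIST1H3J without Vector replicate 2 or 3. Over all genes, the 896 called lower became 367, 227 and 275 without Vector replicates 1, 2 and 3. In all 6 fits the members' median stayed below 0, between -0.64 and -0.36.

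Many H2A and H2B genes are arranged head to head around a shared promoter, and the annotation held 11 such pairs with at most 331 bases between the starts. In 8 pairs the same octamer lay in both promoters, read on opposite strands. The promoter windows of a pair overlap, so an octamer between the starts can fall in both by position alone. Both members were tested in 5 pairs, of which 3 were below 0 in both. HIST1H2AI and HIST1H2BL, 268 bases apart, were at -0.94 and -1.57, and in neither gene did the groups overlap. HIST2H2AC and HIST2H2BE, which start 323 bases apart and share the octamer at chr1:149886721-149886728, had opposite signs, with log2 fold changes of 0.76 (adjusted p = 0.15) and -0.65 (0.016). HIST1H2AG and HIST1H2BJ share the octamer at chr6:27132835-27132842, and only HIST1H2AG fell, while HIST1H2BJ had 0.16 (adjusted p = 0.706), or -0.15 without LOC_OE replicate 1. The difference between the members of a pair was not tested.

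The annotation of the members was set beside their values. In version 29, 25 members have an extended form, defined as more than 1 exon or over 1000 bases of merged exons, and 19 of these were tested. Of them 7 were called lower with a median of -0.65, against 2 of 16 other tested members with a median of -0.18. Among all tested genes 5.58% were called lower, or 5.84% without LOC_OE replicate 1. The 19 held all 3 members that passed the filter through Vector only, and HIST1H2BN and HIST1H3J were among the 7 calls. Without LOC_OE replicate 1 the calls were 13 of 19 (median -0.88) and 4 of 16 (median -0.41). Of 22 tested members with an annotated stem-loop 7 were called lower (median -0.63), and of 13 without one 2 were (median -0.11). These became 15 of 22 (median -0.83) and 2 of 13 (median -0.39) without LOC_OE replicate 1. With all libraries, HIST1H2BN was among the 7 calls with a stem-loop and HIST1H3J among the 2 without. Of the members without a stem-loop, only HIST1H2BJ had the 60 annotated bases that the search needed. The contrast therefore separates members by annotated length and cannot show a part of the stem-loop. In all, 35 members end at the stop codon. HIST1H2BK and HIST1H1C are among these, at 381 and 642 bases, so their FPKM rest on coding length. In RefSeq (GRCh38.p14) the HIST1H2BK gene, H2BC12, spans 8566 bases from 27138293 to 27146858, and HIST1H4I lies within that span on the opposite strand. Near-identical copies make some members uncertain: 21 share at least one 150-base window with another gene, among them HIST2H2AA3 and HIST2H2AA4, HIST2H3A and HIST2H3C, and HIST2H4A and HIST2H4B. Of the 26 tested members that share none, 6 were called lower, with a median of -0.48.

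RNAs that like most histone mRNAs lack a poly(A) tail were looked at as a sign of how the libraries captured such RNA. The study's sources do not say how ribosomal RNA was removed or poly(A) RNA selected. Of 27 such RNAs 20 had at most 3 reads in every library, among them RN7SK, RMRP and RPPH1 at 0. The 5 tested were split, with 2 above 0, at most 0.12, and 3 below. Without LOC_OE replicate 1, 1 was above 0 and 4 were below. Only RN7SL2 was called lower, where 5.58% of all tested genes were. RN7SL2, the RNA of the signal recognition particle, was at 216.7, 753.8 and 415.3 FPKM in Vector and 114.7, 113.5 and 96.9 FPKM in LOC_OE. It fell by 1.91 ± 0.42 on the log2 scale (adjusted p = 0.0261), and its 3 Vector libraries differed widely from each other. The call was lost without Vector replicate 2 or 3 or LOC_OE replicate 2 or 3 (adjusted p between 0.0633 and 0.0911). It was at -1.95 (adjusted p = 0.0281) without LOC_OE replicate 1. MALAT1, whose end is formed by RNase P, was at -0.30 (adjusted p = 0.207), or -0.18 (0.303) without LOC_OE replicate 1. The part of the RN7SL2 difference in the histone values was not tested.

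The genes that serve histone mRNA were taken next. NPAT, the cyclin E and CDK2 substrate that activates histone transcription, was at 4.73, 5.60 and 6.02 FPKM in Vector and 4.68, 4.73 and 5.46 FPKM in LOC_OE and did not pass (log2 fold change -0.11, adjusted p = 0.494). Nor did CASP8AP2, another factor of the histone locus body, at 0.30 (adjusted p = 0.0876). CCNE2 and CDK2 rose, by 0.73 and 0.72 (adjusted p = 0.0156 and 0.0291), with all LOC_OE libraries above Vector. They were at 0.60 and 0.53 without LOC_OE replicate 1, both past the adjusted p and CDK2 under the fold limit. SLBP, which binds the stem-loops printed above and carries histone mRNA through processing and translation, was at 43.2, 42.2 and 41.4 FPKM in Vector and 87.1, 60.1 and 58.0 FPKM in LOC_OE. It rose by 0.66 ± 0.16 (adjusted p = 0.0355), or 0.47 without LOC_OE replicate 1. Of the 16 genes of 3′ end processing, 3 passed upwards and 0 downwards with a median of 0.37, against 10.7% of all genes upwards. ZNF473 and NCBP1 were the others that rose, by 0.48 and 0.41. Of the 16, 9 passed upwards without LOC_OE replicate 1, where 19.4% of all genes did. LSM11, of the U7 snRNP that directs cleavage, was at -0.06 (adjusted p = 0.682), and at 0.04 with quantile normalization. Of 8 genes of histone mRNA decay 0 passed in either direction, by limma or by voom, and 1, LSM1, had an unadjusted p under 0.05, upwards. UPF1 passed downwards without LOC_OE replicate 1, at -0.34 (adjusted p = 0.00618). ERI1, the exonuclease that trims the stem-loop, was at 0.13 (adjusted p = 0.308), and at -0.11 with equal sums of FPKM.

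Replacement histones are made through the whole cell cycle from single genes whose mRNAs are mostly polyadenylated, although H2AFX also held the stem-loop. Of their 14 genes 10 were tested, 3 passed upwards and 0 downwards, with a median of 0.36. Without LOC_OE replicate 1, 6 passed upwards and 2, H1F0 and H1FX, downwards, with a median of 0.29. Of all tested genes 10.7% passed upwards and 9.74% downwards, or 19.4% and 16.1% without LOC_OE replicate 1. H3F3A and H3F3B, which encode H3.3, had 37.2, 36.6 and 36.6 FPKM against 82.9, 68.9 and 58.5 FPKM, and 71.5, 66.1 and 67.7 FPKM against 156.5, 107.1 and 103.8 FPKM. They rose by 0.90 and 0.80 (adjusted p = 0.00991 and 0.0229), and H2AFY, which encodes macroH2A1, by 0.44 (0.0444). H3F3A was at 0.77 and H3F3B at 0.62 without LOC_OE replicate 1, both past the threshold. Of 24 tested histone chaperone genes 6 passed upwards and 0 downwards, with a median of 0.36. Without LOC_OE replicate 1, 12 passed upwards and 2, DAXX and HJURP, downwards, with a median of 0.23. NAP1L1, a carrier of H2A and H2B, rose by 0.73, HIRA, which deposits H3.3, by 0.72, and NASP, a carrier of H3, H4 and H1, by 0.71 (adjusted p = 0.0109, 0.0237 and 0.0131).

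Every S-phase gene tested was above 0 as deposited. Of 37 tested, 17 passed upwards, 0 downwards, and the median was 0.60, or 0.43 without LOC_OE replicate 1, where 27 passed upwards and 35 were above 0. CDC45, of the replicative helicase, rose by 1.12 ± 0.18 (adjusted p = 0.0115), with 10.4, 9.21 and 9.33 FPKM in Vector and 29.6, 19.5 and 18.8 FPKM in LOC_OE. CDC6, which loads that helicase, rose by 0.98 (adjusted p = 0.0194), and PRIM1, the primase, by 0.97 (adjusted p = 0.00374). LOC_OE replicate 1 was the highest LOC_OE library for 36 of the 37 genes, as it was for most histone members. Over all 6 lists together, 31 of 102 tested genes (30.4%) passed upwards, against 10.7% of all genes, and 0 downwards, and 0 did so downwards at an unadjusted p under 0.05 or by voom. Without LOC_OE replicate 1, 57 passed upwards and 5 downwards, against 19.4% and 16.1% of all genes. With the fold limit 24 were called higher, which became 5, 2 and 2 without Vector replicates 1, 2 and 3 and 15 without LOC_OE replicate 2. With equal sums of FPKM 10 were called higher, 9 of them S-phase genes. SLBP, CDC6, H3F3B, CCNE2, CDK2, NASP, NAP1L1 and HIRA were each lost without any one Vector library, and PRIM1 passed in all 6 fits. The lists were drawn from general knowledge with earlier results of these libraries known, and no list was tested as a set.

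**Figure D5:**
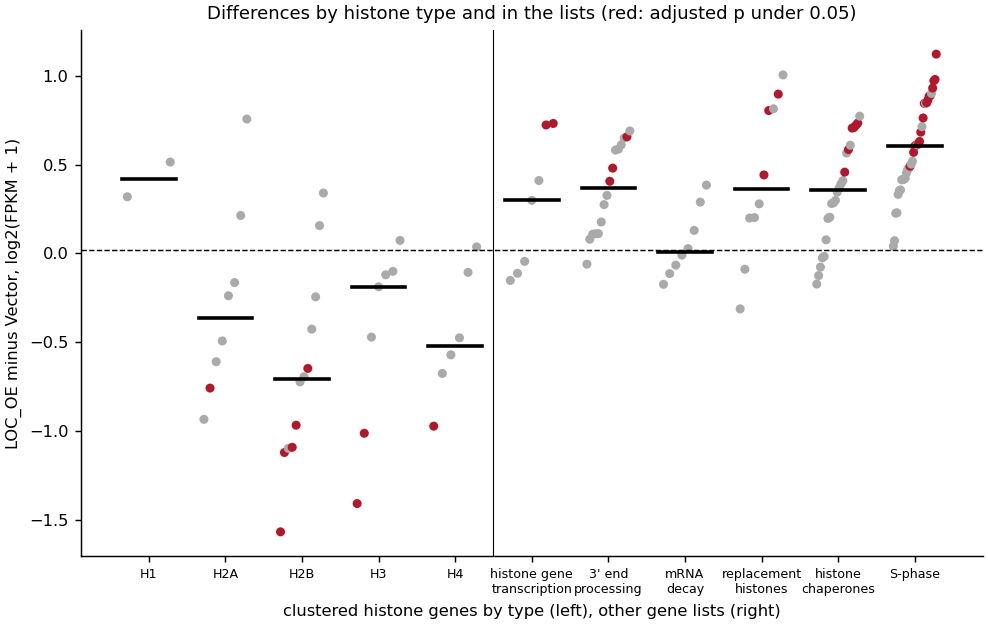
Difference LOC_OE minus Vector on the log2(FPKM + 1) scale for each tested gene, by histone type on the left and by list on the right, in red where the adjusted p was under 0.05, with a black bar at the median and a dashed line at the median of all tested genes (0.02). The medians of H2A, H2B, H3 and H4 lie below that line and those of H1 and of 5 of the 6 lists above it, the exception being mRNA decay at 0.01.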

How the data were processed

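Total RNA of 6 RKO libraries was sequenced with paired ends on a NovaSeq instrument after NEBNext Ultra preparation. The authors deposited 1 table of FPKM, and the submitters' processing notes name HISAT2 2.0.4, StringTie 1.3.0 and hg38. The annotation is not given in the sources used here. All genes were matched to GENCODE version 29. FPKM times merged exon length gave whole reads for 100% of values (tolerance 0.05). The sizes divided by equalled median-of-ratios sizes, so libraries shared 1 scale.

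limma 3.58.1 in R 4.3.3 was fitted with a variance trend to log2(FPKM + 1) of genes reaching 0.5 FPKM in 3 or more libraries, with Benjamini-Hochberg adjustment. The pseudocount understates changes of low genes. Calls needed an adjusted p under 0.05 and a fold of 1.5. Tested on simulated data for this comparison (15544 genes), 189 of 200 changed genes and 18 unchanged ones were called. The simulation gave every gene the same dispersion, held no deviating library and drew its changed genes from better expressed ones. Its numbers therefore do not give the recovery or the errors for these members. Reads carry no molecular identifiers and their strand is not stated. An exact permutation test of 3 against 3 cannot go below 0.1.

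Members and lists were chosen with earlier results of these data known. Genes were named by rule: the 4 most abundant members of each type, the 5 largest changes each way past the threshold, tested HIST3 and HIST4 members, 5 fixed mRNA factors and up to 3 list genes each way. Further members named were chosen after their values were seen.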

Additional observations from a re-analysis of the deposited data

How the results depend on the processing

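The count of members called lower was 9, and it was 16 with array weights, 17 with every library at the same sum of FPKM, and between 2 and 17 when 1 library was left out. It was 7 to 13 with a pseudocount of 0.1, no filter, a mean FPKM of at least 1, quantile normalization, no variance trend, the replicate block, voom, unadjusted p-values or no fold limit. No member was called higher under any of these. The members' median was -0.48 and reached -0.12 without the filter, which brought in 25 members with few reads, -0.71 with a pseudocount of 0.1, -0.76 by voom, and -0.64 to -0.36 with 1 library left out. The 24 list genes called higher were 13 without the filter, 10 at the same sum of FPKM, and 2 to 20 with 1 library left out, and the 0 called lower became 1 with quantile normalization. LOC101927668 was between 2.77 and 8.22, past the threshold each time.

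With the replicate number as a block, 7 members were called lower, with HIST1H2BF and HIST1H3J lost, 22 list genes were called higher, and LOC101927668 was at 2.88. The numbers did not pair the samples, since deviations of same-numbered libraries correlated at 0.111, -0.0338 and 0.116, and replicate 2 did not correlate best with its own number.

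Among named genes, 14 alternative values changed sign, all at adjusted p of 0.2 or more. They were HIST2H3D at -0.28 and HIST4H4 at -0.032 with array weights, HIST2H3D at -0.052, HIST3H2A at -0.036, HIST4H4 at -0.12 and ERI1 at -0.11 with equal sums of FPKM, and HIST1H3G at 0.0002 and LSM11 at 0.035 with quantile normalization. With 1 library left out HIST2H3D was between -0.0855 and 0.27, HIST1H3G between -0.33 and 0.0093, HIST4H4 between -0.0104 and 0.10 and LSM11 between -0.13 and 0.0004. Of the other values of named genes 508 kept direction and side of the threshold, 87 lost the call and 27 gained one. Low read numbers limit several members, HIST1H3J among them with 51 reads in Vector and 2 in LOC_OE.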
